A study of Mus musculus with 6 samples.

Results

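The major histocompatibility complex class I pathway was examined in sorted splenic CD4 T cells of mice with 3 *Ikzf3* genotypes. The genes were chosen by name, with earlier results of these data known. They were every gene whose symbol was *H2-D1*, *H2-K1* or *H2-K2* or began with H2-Q or H2-T, or with H2-M and a digit, together with 15 genes that supply, trim, transport or load peptides or control these steps. This gave 46 of the 25239 genes listed. Of these, 31 were H2 genes (3 of the *H2-D1*, *H2-K1* and *H2-K2* group, 9 of the H2-Q group, 7 of the H2-T group and 12 of the H2-M group). The groups were C57BL/6 mice of the *Ikzf3* genotypes +/+ (wild type), +/N159S (heterozygotes) and N159S/N159S (homozygotes), with 2 libraries each (6 in all). N159S is a germline knock-in change of Aiolos, the zinc finger protein that *Ikzf3* encodes, so every cell type of these mice carried it. The T cells had been purified by flow cytometry as TCRb+ CD4+ CD44- CD127+ cells, a gate close to naive T cells, and *Cd3e*, *Cd3g*, *Cd4* and *Lck* were all detected. The age and sex of the mice behind these libraries are not given in the sources used here.

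Class I molecules carry peptides made inside the cell to its surface, where CD8 T cells and natural killer cells read them. A class I heavy chain pairs with beta-2 microglobulin in the endoplasmic reticulum, with the help of calnexin, calreticulin and the oxidoreductase that *Pdia3* encodes. The proteasome cuts the peptides, the *Tap1* and *Tap2* transporter pumps them in, *Erap1* trims them, and tapasin (*Tapbp*) and its relative TAPBPR (*Tapbpl*) favour peptides that bind tightly. In mice, *H2-K1* and *H2-D1* encode the classical heavy chains that nearly all cells display, and the H2-Q, H2-T and H2-M genes encode the nonclassical class I molecules, several of which are expressed in few tissues or present a narrow set of peptides. *Nlrc5* is the main transcriptional activator of classical class I genes, and T cells express it strongly.

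The H2-Q genes lie side by side, and some of their promoters resemble each other. The promoter windows of the 2 members at the top of the changes described below, *H2-Q6* and *H2-Q10*, are shown with those of *H2-Q4*, the H2-Q gene with the most reads, and of the classical gene *H2-D1*, so that their shared and differing stretches can be seen. Each window runs from 250 bases before to 50 bases after the RefSeq start of the gene (assembly GRCm38.p6, which is mm10). The windows are chr17:35424600-35424899, chr17:35469839-35470138, chr17:35379367-35379666 and chr17:35262844-35263143, all on the plus strand and written 5′ to 3′. Capitals mark a class I kappaB core (GGGANTCCC) or a CRE core (TGACG) on either strand.
H2-Q6: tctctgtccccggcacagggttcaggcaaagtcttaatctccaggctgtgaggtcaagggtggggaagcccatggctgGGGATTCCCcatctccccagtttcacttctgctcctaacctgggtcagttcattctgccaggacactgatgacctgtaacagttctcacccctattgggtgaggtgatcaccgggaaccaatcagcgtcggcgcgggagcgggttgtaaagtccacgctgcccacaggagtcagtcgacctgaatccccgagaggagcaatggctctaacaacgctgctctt
H2-Q10: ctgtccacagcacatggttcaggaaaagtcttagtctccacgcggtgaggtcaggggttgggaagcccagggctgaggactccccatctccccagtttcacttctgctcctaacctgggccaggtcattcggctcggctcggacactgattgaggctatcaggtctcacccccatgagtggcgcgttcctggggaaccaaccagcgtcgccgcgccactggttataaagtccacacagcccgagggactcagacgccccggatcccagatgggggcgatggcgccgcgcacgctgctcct
H2-Q4: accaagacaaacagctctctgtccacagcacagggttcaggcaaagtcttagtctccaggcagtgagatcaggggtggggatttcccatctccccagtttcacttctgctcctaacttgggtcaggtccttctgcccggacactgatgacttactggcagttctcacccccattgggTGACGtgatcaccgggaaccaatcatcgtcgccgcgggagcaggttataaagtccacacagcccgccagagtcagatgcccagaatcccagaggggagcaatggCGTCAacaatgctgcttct
H2-D1: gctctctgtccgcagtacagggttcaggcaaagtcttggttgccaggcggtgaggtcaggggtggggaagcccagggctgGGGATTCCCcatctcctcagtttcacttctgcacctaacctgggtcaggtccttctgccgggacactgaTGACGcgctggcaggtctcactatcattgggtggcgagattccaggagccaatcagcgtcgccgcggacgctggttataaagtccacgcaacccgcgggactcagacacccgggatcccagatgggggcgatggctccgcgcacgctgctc
The *H2-Q6* window was 78.4% identical to that of *H2-Q4*, 77.2% to that of *H2-Q10* and 79.7% to that of *H2-D1* over the aligned columns. By this measure the highest value among the windows aligned was that of *H2-D1* and *H2-Q10* (82.6%). The *H2-Q2* window was 51.0 to 63.3% identical to those of the other H2-Q genes, with *H2-Q7* the lowest. The *H2-T23* window was 51.0% identical to that of *H2-Q10*. Gap columns count as differences, so a pair whose windows are offset scores lower. The windows of *H2-Q6* and *H2-Q7* are offset and scored 75.0%, with 255 identical bases in 340 columns. These values therefore do not settle which pair is closest. The kappaB core was present in the *H2-Q6* and *H2-D1* windows, as well as in that of *H2-K1*, and was not found in those of *H2-Q10* and *H2-Q4*. Among all 27025 RefSeq promoters of this length it was found in 0.777%. Other forms of this core were not searched for. At the matching place the *H2-Q4* window holds gggatttccc and the *H2-Q10* window aggactccc, so these windows are not read as lacking such an element.

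The 6 libraries held between 11696461 and 17317260 reads counted on genes. The members took 1.10 and 1.11% of these reads in wild-type T cells, 1.23 and 1.21% in heterozygous T cells, and 1.28 and 1.21% in homozygous T cells. Levels are given below as CPM, the counts scaled by edgeR's TMM library sizes so that libraries of unequal depth can be compared. Differences are log2 fold changes from edgeR with their standard errors, and FDR is the Benjamini-Hochberg adjusted p over the 12117 genes tested, with a threshold of 0.05. *Ikzf3* itself stood at 157 and 154 CPM in wild type, 168 and 152 in heterozygotes and 197 and 202 in homozygotes. Its log2 fold change was 0.36 ± 0.09 (SE, FDR 0.049) in homozygotes, just past the threshold, and 0.04 (FDR 0.877) in heterozygotes. These counts do not read the changed base. The heterozygous libraries stood apart from the other 4 in 2 ways. *Xist*, the RNA that silences an X chromosome, reached 730 and 824 CPM in them and at most 1.98 CPM in the others, so the heterozygous genotype and a difference in the sex of the animals cannot be told apart. The summed level of the 8 B cell markers listed, of 10 looked for, was 335 and 561 CPM in them, against 138 and 204 in wild type and 144 and 97.6 in homozygotes. In sorted bulk samples of this kind, a change in the number of cells of a type and a change in RNA per cell cannot be told apart. The labels number the 2 libraries of a genotype without naming the animal behind each, so the p-values measure the spread between these libraries.

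Of the 46 members, 29 passed the filter on low counts and were tested, 14 of them H2 genes and 15 loading or processing genes. In homozygous T cells, 4 members were higher than in wild type (*H2-Q6*, *H2-Q10*, *H2-Q5* and *Tapbpl*), none was lower and 25 did not pass the test. Over all genes tested, 3.14% were called higher and 2.12% lower in this comparison. In heterozygous T cells, 3 members were higher (*H2-Q6*, *H2-Q10* and *H2-Q5*), none was lower and 26 did not pass, against 1.15% called higher and 0.602% called lower over all genes. Unadjusted p was under 0.05 for 12 members in homozygotes (18.3% of all genes) and for 9 in heterozygotes (16.3% of all genes). The median log2 fold change of the tested members was 0.17 in homozygotes and 0.16 in heterozygotes, while that of all tested genes was 0.00038 and 0.011. Both comparisons share the same wild-type libraries, and the filter kept a member if only 1 genotype expressed it. Both homozygous libraries lay above both wild-type libraries for 15 of the 29 members (24.3% of all genes did so) and below them for 4 (23.9% of all genes). Both heterozygous libraries lay above for 15 (25% of all genes) and below for 2 (22.1% of all genes).

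**Figure D1:**
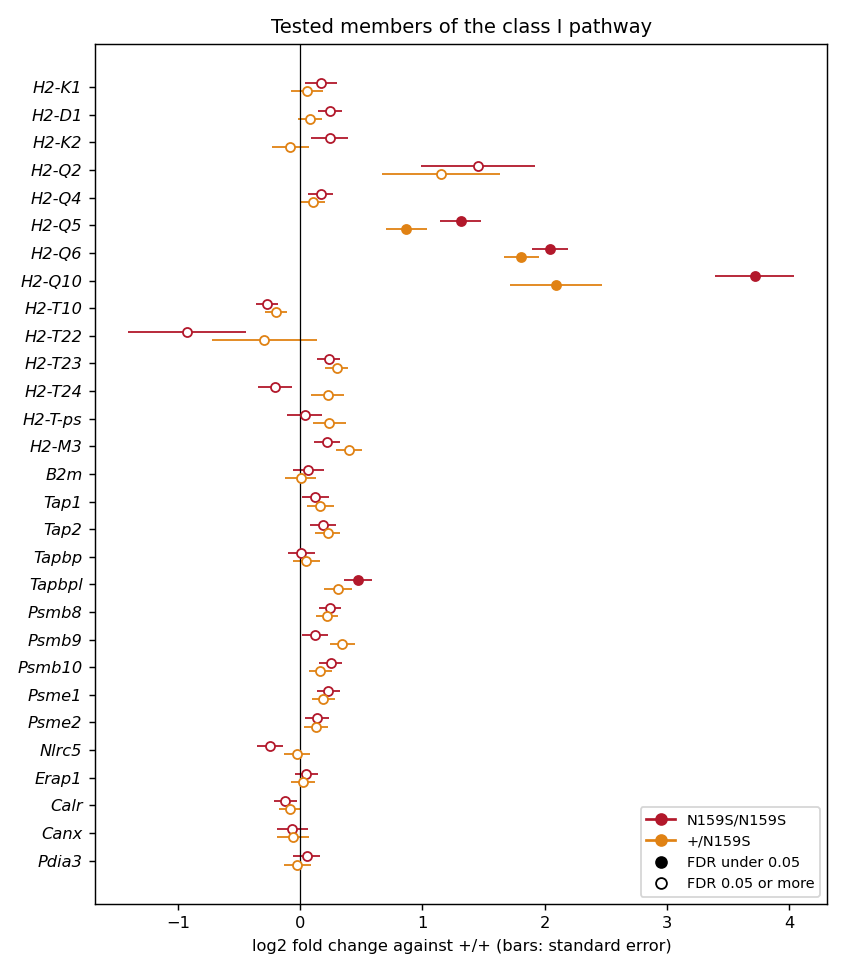
Log2 fold change against wild type (horizontal axis, bars show 1 standard error) of the 29 tested members, in red for homozygotes and in orange for heterozygotes, with filled points for FDR under 0.05. *H2-Q10*, *H2-Q6* and *H2-Q5* are filled in both colours, *Tapbpl* only in red, and every other member is open and, apart from *H2-Q2* and *H2-T22*, lies within 0.5 of 0.

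*H2-Q6* rose 4.12-fold in homozygous T cells and 3.50-fold in heterozygous T cells. It is one of the genes of the Qa-2 antigen, a nonclassical class I molecule anchored in the membrane by a lipid and displayed by resting lymphocytes. It had 1017 and 1477 reads in wild type, 4640 and 5920 in heterozygotes and 6568 and 5301 in homozygotes, which are levels of 87.3 and 99.3, 274 and 381, and 382 and 388 CPM. The groups did not overlap between wild type and either mutant genotype, and 1 heterozygous library lay just below the homozygous libraries. On the log2 scale the change was 2.04 ± 0.15 (SE, n = 2 and 2, FDR 2.85e-05) in homozygotes and 1.81 ± 0.15 (SE, FDR 9.47e-05) in heterozygotes. *H2-Q6* was also the only member whose heterozygous level differed from the log2 midpoint between wild type and homozygotes. It lay 0.79 ± 0.12 (SE) above that midpoint (FDR 0.0101), and the heterozygous log2 change was 0.885 of the homozygous one. Over all genes, 0.825% lay above and 0.206% below the midpoint by this test. The heterozygous libraries in this contrast are those that stood apart in *Xist* and B cell markers, and the part of either was not tested.

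*H2-Q10* rose 13.1-fold in homozygous T cells from a low level in wild type. It encodes a class I molecule without a membrane anchor that is made mainly by the liver and is found in serum. The gene had 13 and 37 reads in wild type, 148 and 113 in heterozygotes and 513 and 263 in homozygotes, or 1.12 and 2.49, 8.73 and 7.27, and 29.8 and 19.2 CPM. The 3 genotypes did not overlap, and the levels rose with the number of mutant alleles. Its log2 fold changes were 3.72 ± 0.32 (SE, FDR 8.96e-05) in homozygotes and 2.09 ± 0.38 (SE, FDR 0.0214) in heterozygotes. The heterozygous change was 0.563 of the homozygous change on the log2 scale, and its distance from the midpoint was 0.23 ± 0.27 (SE, FDR 0.791). With its few wild-type reads the size of the change differed with the library left out. The log2 fold changes then ranged from 3.31 to 4.47 in homozygotes and from 1.68 to 2.84 in heterozygotes. The upper values were those without replicate 2 of wild type.

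*H2-Q5*, a gene that GENCODE M21 annotates as a polymorphic pseudogene, rose 2.48-fold in homozygous and 1.82-fold in heterozygous T cells. Its reads numbered 365 and 615 in wild type, 1204 and 966 in heterozygotes and 1798 and 1044 in homozygotes. In CPM these were 31.3 and 41.3, 71 and 62.2, and 105 and 76.4, again without overlap between the genotypes. This gave log2 fold changes of 1.31 ± 0.17 (SE, FDR 0.000973) in homozygotes and 0.87 ± 0.17 (SE, FDR 0.0278) in heterozygotes. The heterozygous calls of *H2-Q10* and *H2-Q5* were lost when 1 of 2 libraries was left out. Without replicate 1 of wild type, the log2 fold changes were 1.68 (FDR 0.109) for *H2-Q10* and 0.69 (FDR 0.165) for *H2-Q5*, and without replicate 1 of heterozygotes they were 1.95 (FDR 0.0547) and 0.76 (FDR 0.0913). The homozygous calls of *H2-Q6*, *H2-Q10* and *H2-Q5* held with each library left out in turn.

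**Figure D2:**
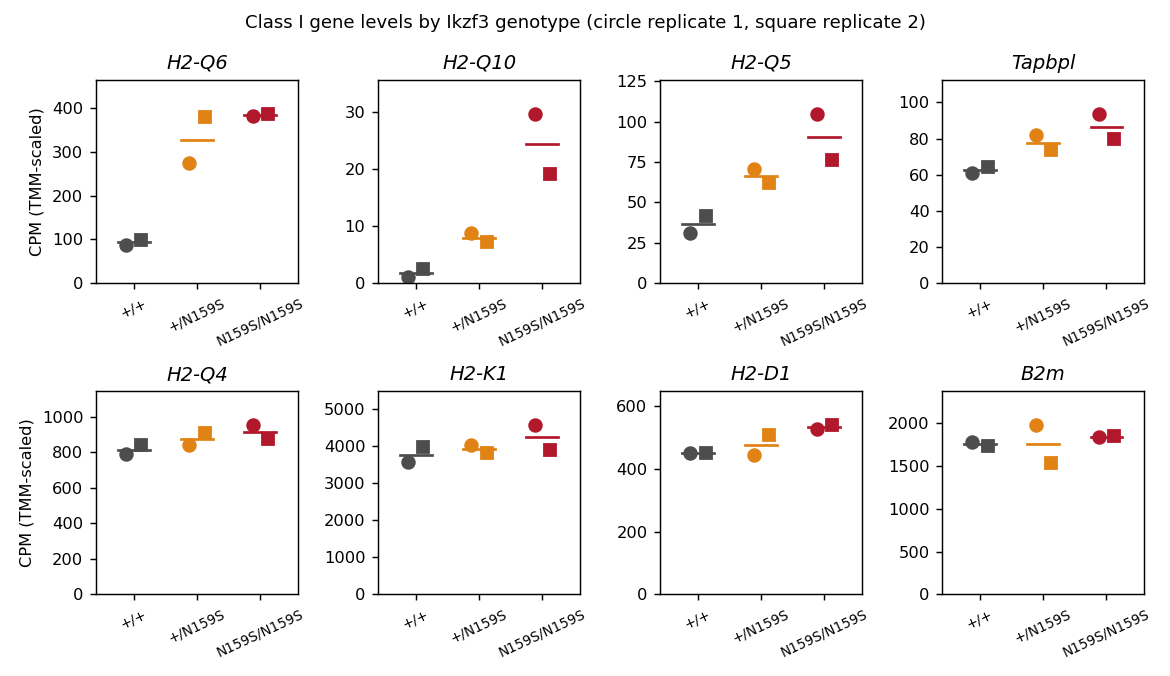
Level in CPM (vertical axes from 0, each with its own scale) of 8 members in each library, by genotype (circles are replicate 1, squares replicate 2, lines the mean of 2). The upper row shows the members called in homozygous T cells, whose mutant libraries all lie above the wild-type libraries, and the lower row shows *H2-Q4*, *H2-K1*, *H2-D1* and *B2m*, whose differences did not pass the test.

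The remaining H2-Q genes showed smaller or poorly measured differences. *H2-Q4*, which encodes another nonclassical class I heavy chain, stood at 790 and 841 CPM in wild type, 842 and 907 in heterozygotes and 954 and 876 in homozygotes. Its log2 fold change in homozygotes was 0.17, with a 95% confidence interval from -0.06 to 0.39 (FDR 0.439), which lies below the intervals of *H2-Q5* (0.95 to 1.68), *H2-Q6* (1.72 to 2.36) and *H2-Q10* (3.01 to 4.43). *H2-Q2* had 9 and 10 reads in wild type, 24 and 28 in heterozygotes and 30 and 31 in homozygotes. In CPM, both mutant genotypes lay above wild type (0.772 and 0.672), while heterozygotes (1.42 and 1.8) and homozygotes (1.74 and 2.27) overlapped. At this depth the log2 fold changes of 1.46 ± 0.47 (SE, FDR 0.11) in homozygotes and 1.15 ± 0.48 (SE, FDR 0.267) in heterozygotes did not pass the test. *H2-Q1* had at most 6 reads in a library and was not tested.

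Summed over the group, the H2-Q genes rose from 910 and 985 CPM in wild type to 1470 and 1360 CPM in homozygotes (log2 fold change 0.58 ± 0.11, SE, FDR 0.0109), and stood at 1200 and 1360 CPM in heterozygotes (0.43 ± 0.11, SE, FDR 0.0775). The rise in homozygotes did not pass the test without replicate 1 of wild type (FDR 0.0922) or without replicate 1 of homozygotes (FDR 0.0892). The makeup of these reads differed without overlap between wild type and the mutant genotypes. *H2-Q4* took 86.7 and 85.4% of all H2-Q reads in wild type, 70.4 and 66.7% in heterozygotes and 64.8 and 64.3% in homozygotes. The share of *H2-Q6* was 9.58 and 10.1%, 22.9 and 28%, and 25.9 and 28.5% in the same order, and that of *H2-Q10* 0.123 and 0.253%, 0.729 and 0.535%, and 2.03 and 1.41%. Per length, *H2-Q6* ranked the 18th of the tested members in wild type (41.9 and 47.6 CPM per kb of exon) and stood at 131 to 186 CPM per kb in the mutant libraries, where *H2-D1* stood at 173 to 210.

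**Figure D3:**
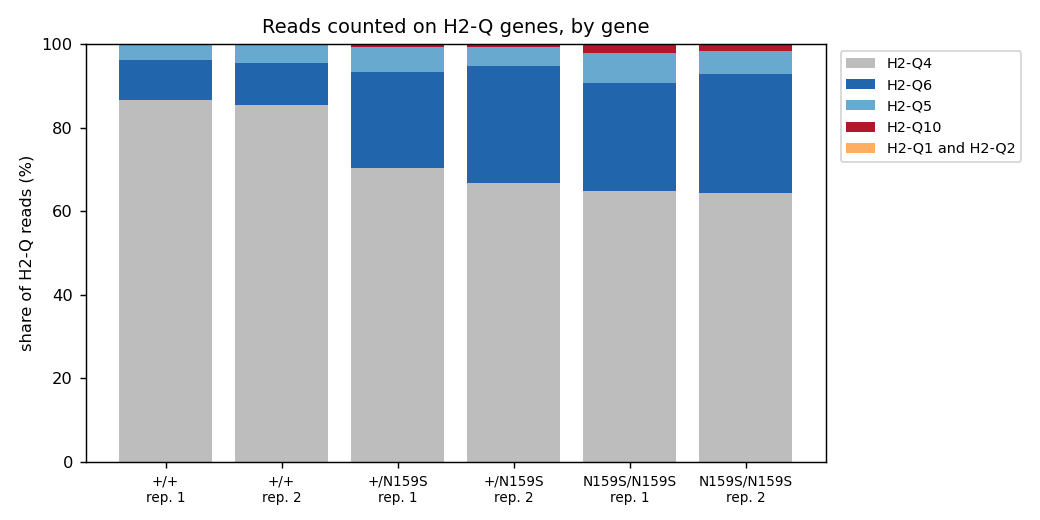
Share of all reads counted on H2-Q genes (vertical axis, percent) that each H2-Q gene took in the 6 libraries. The grey part, *H2-Q4*, is 85.4% or more in both wild-type libraries and 70.4% or less in the 4 mutant libraries, while *H2-Q6* takes 22.9% or more there. *H2-Q1* and *H2-Q2* are too small to be seen.

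Reads of H2-Q genes can be hard to place, because these genes share stretches of sequence. Of all 100-base stretches in the exons of *H2-Q6* in the GENCODE M21 annotation, 13.0% occurred in another gene, most often in *H2-Q7* (8.36%). The share was 8.01% for *H2-Q10* (5.81% with *H2-Q7*), 14.0% for *H2-Q5* (11.4% with *H2-Q7*) and 14.1% for *H2-Q4*, most of it with the gene *Gm11131* on the opposite strand (11.8%). It was 3.59% for *H2-D1* and 0.957% for *H2-K1*. At 50 bases the shares were 35.0% for *H2-Q6*, 19.1% for *H2-Q10* and 36.4% for *H2-Q5*, and at 150 bases they were 5.99, 3.43 and 3.86%. The read length is not given in the sources used here. Between 4.23 and 4.92% of all entries in a library were set aside as not uniquely aligned and 1.41 to 1.68% as ambiguous between genes, so a level of these genes is the level of the reads that could be placed.

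*H2-Q7*, *H2-Q8*, *H2-Q9*, *H2-T9*, *H2-M10.3* and *H2-M10.4* were listed at 0 in all 6 libraries, and a count of 0 allows up to 3 reads in a library from counting error alone. *H2-Q7* lies between *H2-Q6* and *H2-Q10* and shares sequence with both, GENCODE M21 gives no locus for *H2-Q8*, *H2-Q9* and *H2-T9*, and HTSeq in its usual setting sets aside a read that overlaps 2 annotated genes, so these values are not read as absence of the RNA. The reads counted on *H2-Q10* were not in a fixed ratio to those on *H2-Q6*. For each 100 reads on *H2-Q6* there were 1.28 and 2.51 on *H2-Q10* in wild type, 3.19 and 1.91 in heterozygotes and 7.81 and 4.96 in homozygotes. For *H2-Q5* there were 35.9 and 41.6, 25.9 and 16.3, and 27.4 and 19.7. The first of these ratios was higher and the second lower in homozygotes than in both wild-type libraries. How many of the reads on *H2-Q6*, *H2-Q10* and *H2-Q5* came from *H2-Q7* or another copy was not tested.

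The 3 H2 genes that rose lie close together on mm10 chromosome 17. *H2-Q5* spans chr17:35394126-35397800, *H2-Q6* chr17:35424850-35430055 and *H2-Q10* chr17:35470089-35474563, all on the plus strand, and 80.4 kb hold all of them. *H2-Q4* lies just before them at chr17:35379617-35385290, and *H2-D1* at chr17:35262730-35267499. Of the 46 members 43 had coordinates, and 33 of these lay on chromosome 17. From the start of *Tapbp* to the end of *H2-M2*, the chromosome held 19 tested members and 103 other tested genes. The other genes had a median log2 fold change of 0.025 in homozygotes and 0.030 in heterozygotes, with 5 called higher and 1 lower in the former and 6 called higher in the latter. The shares over all tested genes were 3.14% higher and 2.12% lower in homozygotes, and 1.15% higher and 0.602% lower in heterozygotes.

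**Figure D4:**
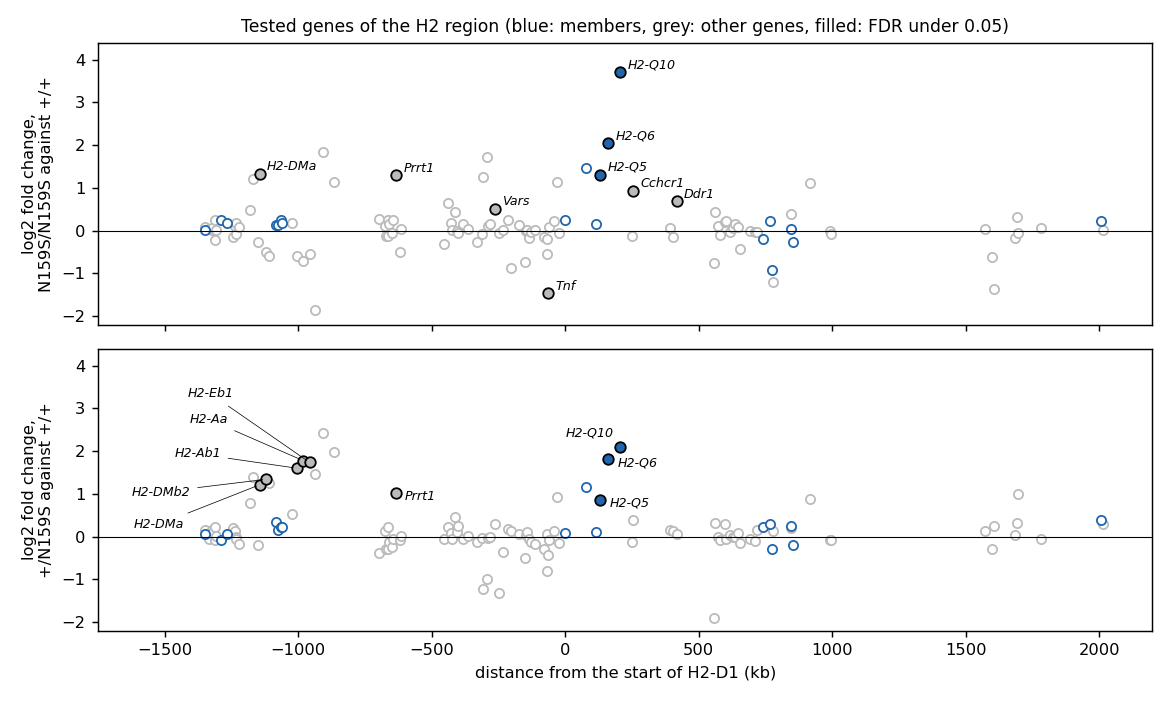
Log2 fold change against wild type of the tested genes from *Tapbp* to *H2-M2*, by distance from the start of *H2-D1* in kb (upper panel homozygotes, lower panel heterozygotes). Blue points are members, grey points other genes, and filled points passed FDR 0.05. The filled members lie together within 80.4 kb, and the other filled genes of the lower panel are mostly class II genes.

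The classical heavy chains did not pass the test in either comparison. *H2-K1* took 32.2 to 35.5% of all member reads in a library. It stood at 3580 and 3980 CPM in wild type, 4050 and 3810 in heterozygotes and 4580 and 3900 in homozygotes, so the groups overlapped. Its log2 fold change was 0.17 (95% confidence interval -0.12 to 0.45, FDR 0.567) in homozygotes and 0.06 (-0.23 to 0.34, FDR 0.873) in heterozygotes. *H2-D1* stood at 452 and 451 CPM in wild type, 446 and 509 in heterozygotes and 527 and 541 in homozygotes. Both homozygous libraries lay above the wild-type libraries, by 0.24 on the log2 scale (0.03 to 0.46, FDR 0.215). Changes of 2-fold, or 1 on the log2 scale, lie outside these intervals. *H2-K2*, a pseudogene near *H2-K1*, stood at 88.9 and 109, 98.9 and 88.5, and 136 and 98.2 CPM (FDR 0.452 in homozygotes).

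Among the H2-T and H2-M genes no member passed the test. *H2-T23* encodes Qa-1, the nonclassical molecule that the inhibitory receptor NKG2A of natural killer cells recognises. It stood at 340 and 338 CPM in wild type, 436 and 397 in heterozygotes and 414 and 382 in homozygotes. Its mutant libraries all lay above the wild-type libraries, with log2 fold changes of 0.30 ± 0.10 (SE, FDR 0.153) in heterozygotes and 0.23 ± 0.10 (SE, FDR 0.224) in homozygotes. *H2-M3*, whose product presents peptides that start with formyl methionine, stood at 37.3 and 40.3, 50.5 and 51.7, and 46 and 44.5 CPM in the same order of genotypes. Its log2 fold change was 0.40 ± 0.11 (SE, FDR 0.0907) in heterozygotes and 0.22 ± 0.11 (SE, FDR 0.311) in homozygotes.

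*H2-T10* was the tested H2-T gene whose mutant libraries all lay below the wild-type libraries. It encodes a ligand of some gamma delta T cell receptors, is annotated as a polymorphic pseudogene, and stood at 121 and 123, 107 and 105, and 101 and 100 CPM. The log2 fold change was -0.27 ± 0.09 (SE, FDR 0.124) in homozygotes and -0.20 ± 0.09 (SE, FDR 0.307) in heterozygotes. Its close relative *H2-T22* had 12 to 22 reads in a library (log2 fold change -0.93 ± 0.48 in homozygotes, SE, FDR 0.345), and 28.1% of the 100-base stretches of *H2-T10* and 31.5% of those of *H2-T22* occur in other genes, so the reads of this pair are uncertain. *H2-T24* stood between 47.0 and 73.4 CPM and the pseudogene *H2-T-ps* between 16.5 and 21 CPM, with FDR 0.429 or more in both comparisons. Summed over the group, the log2 fold change in homozygotes was 0.08 (FDR 0.737) for the H2-T genes and 0.21 (FDR 0.327) for the H2-M genes. The 11 members with a read that were not tested, *H2-M1*, *H2-M2*, *H2-M5*, *H2-M9*, *H2-M10.1*, *H2-M10.2*, *H2-M10.5*, *H2-M10.6*, *H2-M11*, *H2-Q1* and *H2-T3*, had at most 8 reads in any library.

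*B2m*, the light chain that all these heavy chains need, had the highest level per length of all members, 2050 CPM per kb in wild type. It stood at 1780 and 1740 CPM in wild type, 1980 and 1540 in heterozygotes and 1840 and 1850 in homozygotes. The 2 heterozygous libraries lay on either side of the other 4. The log2 fold change was 0.07 (-0.21 to 0.35, FDR 0.848) in homozygotes and 0.0037 in heterozygotes (-0.28 to 0.28, FDR 0.992). *B2m* shared no 100-base stretch with another gene.

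Of the genes that load peptides, *Tapbpl* rose in homozygous T cells, and *Tap1*, *Tap2* and *Tapbp* did not pass the test. *Tapbpl*, the TAPBPR peptide editor, had 712 and 953 reads in wild type, 1392 and 1140 in heterozygotes and 1613 and 1086 in homozygotes. These were 61.1 and 64.1, 82.1 and 73.4, and 93.8 and 79.5 CPM, and the wild-type libraries were the lowest. The log2 fold change was 0.47 ± 0.11 (SE, 1.39-fold, FDR 0.0358) in homozygotes and 0.31 ± 0.11 (SE, FDR 0.209) in heterozygotes. The call in homozygotes was lost without replicate 1 or replicate 2 of wild type (FDR 0.204 and 0.152) and without replicate 1 of homozygotes (FDR 0.283). Unlike the H2-Q genes, *Tapbpl* lies on chromosome 6 (chr6:125223933-125231860), and 0.976% of its 100-base stretches occur in other genes.

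*Tap2*, a chain of the peptide transporter, stood at 350 and 336 CPM in wild type, 366 and 434 in heterozygotes and 385 and 395 in homozygotes (log2 fold change 0.22 and 0.19, FDR 0.312 and 0.385 for the heterozygous and homozygous genotype). The other chain, *Tap1*, stood at 337 and 389, 430 and 384, and 420 and 370 CPM, with overlap between all genotypes (0.17 and 0.12, FDR 0.5 and 0.631). *Tapbp*, the tapasin gene, stood at 342 and 288, 321 and 331, and 294 and 340 CPM. Its log2 fold change was 0.05 in heterozygotes and 0.0085 in homozygotes, with a 95% confidence interval from -0.24 to 0.25 in the latter. In GENCODE M21, 212 exon bases of *Tap1* overlap *Psmb9* on the opposite strand, and 1053 exon bases of *Tapbp* overlap other genes. Whether the counting used strand is not given in the sources used here, so reads of these overlaps are uncertain.

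The immunoproteasome subunits replace their constitutive counterparts in lymphocytes and favour peptides that class I molecules bind. None of the 3 passed the test in either comparison. *Psmb8* stood at 268 and 255 CPM in wild type, 299 and 310 in heterozygotes and 312 and 308 in homozygotes, and *Psmb10* at 122 and 116, 137 and 130, and 145 and 138 CPM. For both, all mutant libraries lay above the wild-type libraries, with log2 fold changes in homozygotes of 0.24 ± 0.09 (SE, FDR 0.172) and 0.25 ± 0.09 (SE, FDR 0.176). *Psmb9* stood at 107 and 104, 134 and 135, and 125 and 105 CPM, with a log2 fold change of 0.35 ± 0.10 (SE, FDR 0.129) in heterozygotes and 0.12 ± 0.10 (SE, FDR 0.61) in homozygotes. Its homozygous libraries differed from each other by more than their mean differed from that of wild type.

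Each immunoproteasome subunit was also set against the constitutive subunit that it replaces. The ratio of *Psmb8* to *Psmb5* reads was 12.8 and 11.5 in wild type, 12.3 and 12 in heterozygotes and 11.3 and 14 in homozygotes. The ratio of *Psmb9* to *Psmb6* reads was 1.6 and 1.5, 1.76 and 1.79, and 1.7 and 1.58, and that of *Psmb10* to *Psmb7* reads 1.66 and 1.79, 1.93 and 1.66, and 2.15 and 1.94. Among these 3 pairs, both homozygous libraries lay above both wild-type libraries for *Psmb10* only, and both heterozygous libraries for *Psmb9* only. These ratios are not corrected for length and serve only to compare libraries. *Psme1* and *Psme2*, the subunits of the PA28 activator of the proteasome, stood at 212 to 265 and 131 to 157 CPM. Their log2 fold changes in homozygotes were 0.23 ± 0.09 (SE, FDR 0.22) and 0.14 ± 0.10 (SE, FDR 0.533), and 18.4% of the 100-base stretches of *Psme2* occur in its near copy *Psme2b*.

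*Nlrc5*, the class I transactivator, stood at 365 and 436 CPM in wild type, 400 and 387 in heterozygotes and 340 and 336 in homozygotes. Both homozygous libraries were below the wild-type libraries, with a log2 fold change of -0.25 ± 0.10 (SE, 95% confidence interval -0.47 to -0.02, FDR 0.238), which did not pass the test. In heterozygotes it was -0.03 (FDR 0.93). *Erap1*, the peptidase that trims peptides to length, stood at 169 to 194 CPM in all libraries (log2 fold change 0.05 and 0.02, FDR 0.848 and 0.931 for the homozygous and heterozygous genotype). The chaperone genes *Calr*, *Canx* and *Pdia3* had log2 fold changes in homozygotes of -0.12, -0.06 and 0.05, and FDR was 0.551 or more in both comparisons. *Calr* was lower in all 4 mutant libraries (429 to 459 CPM) than in the wild-type libraries (486 and 476 CPM).

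For 19 of the 29 tested members the mean level in heterozygous T cells lay between those of the other genotypes, as it did for 38.7% of all tested genes. The 10 exceptions were *H2-K2*, *H2-M3*, *H2-T23*, *H2-T24*, *H2-T-ps*, *Pdia3*, *Psmb9*, *Tap1*, *Tap2* and *Tapbp*, and none of them differed from the midpoint by the test.

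Regulators that act on class I promoters or sense interferon were looked at as a fixed list. Over all genes, 3.14% were called higher and 2.12% lower in homozygotes, and 1.15% higher and 0.602% lower in heterozygotes. Of 22 genes for interferon regulatory factors, interferon receptors and signalling, RFX and NFY subunits, *Creb1*, NF-kappaB subunits and *Ciita*, none was called higher and 2 were called lower in homozygotes. These were *Ifngr2*, a chain of the interferon gamma receptor (-0.42, FDR 0.0389), and *Ciita*, the class II transactivator (-1.23, FDR 0.0203). In heterozygotes, *Ciita* was called higher (0.97, FDR 0.0403) and none was called lower. The median log2 fold change of the list was -0.06 in homozygotes and -0.05 in heterozygotes. Among the 21 interferon-stimulated genes, 5 were called higher and 1 lower in homozygotes, with a median of -0.02. *Oas1a*, an antiviral enzyme, rose by 2.03 (FDR 0.000126), *Bst2*, which tethers viruses to the cell surface, by 0.53 (FDR 0.0134) and *Gbp2*, a guanylate-binding protein, by 0.43 (FDR 0.0287), while *Ifit2*, an interferon-induced RNA-binding protein, fell by 0.64 on the log2 scale (FDR 0.00512). In heterozygotes, *Oas1a* alone of this list was called (1.78, FDR 0.00128), and the median was 0.39. This median was 0.079 without replicate 1 and 0.60 without replicate 2 of heterozygotes, and the summed level of the list was 1350 and 1300 CPM in wild type and 1580 and 1260 CPM in heterozygotes.

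None of the 16 constitutive proteasome genes and none of the 11 genes of endoplasmic reticulum quality control passed the test in either comparison, and their medians lay between -0.06 and 0.08. Of 7 class I-like genes outside the H2 region 5 were tested, with medians of 0.09 in homozygotes and -0.05 in heterozygotes and 1 call. *Cd1d1*, which presents lipids to natural killer T cells, stood at 45.8 and 48.5 CPM in wild type, 43.3 and 45.8 in heterozygotes and 29.2 and 26.3 in homozygotes. It fell by 0.76 on the log2 scale in homozygotes (FDR 0.00316), and the log2 fold change in heterozygotes was -0.08 (FDR 0.758).

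The class II pathway is the counterpart that B cells and other presenting cells use. Of its 10 genes, 6 were called higher in heterozygotes (*Cd74*, *H2-Aa*, *H2-Ab1*, *H2-Eb1*, *H2-DMa* and *H2-DMb2*) and 1 in homozygotes (*H2-DMa*), with median log2 fold changes of 1.37 and -0.40. *Cd74*, the invariant chain, stood at 67.6 and 98.5 CPM in wild type, 190 and 325 in heterozygotes and 80.1 and 56.1 in homozygotes, and *H2-DMa*, the peptide editor of class II, at 17 and 16, 36.4 and 40.2, and 45.9 and 37 CPM. Among the 8 B cell markers, which include *Cd74*, 3 were called higher in heterozygotes (*Cd74*, *Cd79a* and *Cd79b*) and 2 lower in homozygotes (*Cd79a* and *Ms4a1*). The B cell marker sum of the homozygous libraries overlapped that of wild type. The part of the B cell transcripts in the values of the class I genes was not tested in any genotype.

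Markers of other cells that a spleen sort could hold summed to less than the B cell markers in every library. The summed level of 10 myeloid and dendritic markers was 24 and 22.5 CPM in wild type, 25.8 and 18.3 in heterozygotes and 28.2 and 43.6 in homozygotes, with none called. That of 9 CD8 T cell and natural killer markers was 67.2 and 70.8, 60.2 and 55.7, and 44.9 and 41.2 CPM, with *Gzma* called higher and *Cd8b1* lower in homozygotes. The 5 erythroid markers summed to between 0.686 and 6.49 CPM, with *Hba-a1*, *Hbb-bs* and *Hbb-bt* at 0 throughout. The 7 CD4 T cell markers listed, of 9 looked for, summed to 4890 and 4660, 4110 and 3930, and 3930 and 4060 CPM, with *Lef1* called lower in homozygotes and *Il7r*, which encodes the CD127 of the sort, in heterozygotes. The part of these sums in the levels of the class I genes was not tested.

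The promoter windows were searched on both strands for 6 short motifs. RefSeq windows were available for 35 members, 22 of them tested, and not for *H2-Q5* and *Tapbpl*. The core of the interferon-stimulated response element (GAAANNGAA) was found in 5 of the 22 (*B2m*, *Erap1*, *H2-T22*, *H2-T23* and *Psme1*) and in 8.57% of all promoters. Only this order of letters was searched for. It does not match the stretch agtttcacttct, which the windows of *H2-Q6*, *H2-Q10*, *H2-Q4*, *H2-D1* and *H2-K1* hold. A window without a match is therefore not read as lacking such an element. The gamma-activated site (TTCNNNGAA) was found in 2 (*H2-M3* and *Psmb8*) and in 8.47% of all promoters, the CRE core (TGACG) in 11 and in 21%, and the Y box (CCAAT) in 16 and in 37.9%. The letters TGGGAA, a form of the core that Ikaros family proteins recognise, were found in 14 of the 22 and in 25.5% of all promoters. They were present in the windows of *H2-Q10*, *H2-Q4* and *H2-Q2* and were not found in that of *H2-Q6*. The *H2-Q6* window does hold the shorter GGGAA, which was not searched for. The kappaB core was found in 3 of the 22. Of the members that rose, *H2-Q6* thus held the kappaB core and Y boxes in the forms searched for. *H2-Q10* held an Ikaros core and none of the other 5 motifs in these forms. Matches overlapped in *Psmb8* (gamma-activated site and Ikaros core), in *H2-M3* (Y box and Ikaros core) and in *Erap1* (a pair of interferon-response cores). The windows of *Tap1* and *Psmb9* overlap on opposite strands. Their CRE, Y box and Ikaros matches are the same bases and were counted for both genes. A match is a description of these letters and not a binding site.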

How the data were processed

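RNA-seq of T cells sorted from spleen was analysed, with 2 libraries for each of the *Ikzf3* genotypes +/+ (wild type), +/N159S (heterozygotes) and N159S/N159S (homozygotes). B cell libraries were not analysed here. RNA was poly(A) selected. Reads were trimmed with Trimmomatic 0.38.1, mapped to mm10 with HISAT2 2.2.1 and counted on refGene genes with HTSeq 2.0.2, with versions per the submitters' processing notes. The authors deposited raw counts per gene, without normalization, and reads set aside (42.3 to 49.3% of entries) stayed out of library sizes. Read length and strand setting are not given in the sources used here.

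In R 4.3.3, edgeR 4.0.16 filterByExpr (minimum count 10, minimum total 15) kept 12117 of 25239 genes. Libraries were TMM-scaled, and a quasi-likelihood model (its current form) with 1 coefficient per genotype was fitted to all 6 libraries. Heterozygotes were also compared with the log2 midpoint of the other genotypes. P-values were adjusted by Benjamini-Hochberg over all tested genes (threshold 0.05), and intervals are 95%. An exact permutation test of 2 against 2 libraries cannot go below 0.333 and was not used. The script was tested on simulated counts. CPM per kb divides by the union of GENCODE M21 exons, and promoters, from the RefSeq table, were aligned with Biopython 1.88. Libraries of 1 genotype differed by more than counting noise (chi-square per degree of freedom 9.98 to 13.4), so none was counted as a repeat run of the same library. This value cannot show whether they came from different animals.

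All members with a read were named. Full values were given for *H2-D1*, *H2-K1*, *B2m*, *Tap1*, *Tap2*, *Tapbp*, *Tapbpl*, *Psmb8*, *Psmb9*, *Psmb10*, *Nlrc5*, *Erap1* and any other member past the threshold, and of the other lists up to 4 genes past it with the lowest FDR. *Ikzf3*, *Cd74* and *Xist* served as checks. The members and lists were chosen with earlier results of these data known. Alternatives were DESeq2 1.42.0, its size factors within edgeR, no filter, a minimum of 10 reads in each library, a replicate block, the earlier quasi-likelihood test, only the 2 genotypes compared, and each library left out in turn. The median of the interferon-stimulated genes without each heterozygous library was added after seeing the data.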

Additional observations from a re-analysis of the deposited data

How the results depend on the processing

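The calls of *H2-Q6*, *H2-Q10* and *H2-Q5* in homozygotes held under all 13 alternatives, with log2 fold changes from 1.96 to 2.14, 3.31 to 4.47 and 1.06 to 1.54. That of *H2-Q6* in heterozygotes also held (1.55 to 2.03), and its distance from the midpoint held under the 12 alternatives that gave one (0.53 to 1.0). *Tapbpl* in homozygotes kept its direction (0.34 to 0.59) and was lost with the replicate block (FDR 0.0531), which otherwise changed no member call. The differences of replicate 1 from replicate 2 correlated between genotypes at -0.17 (wild type and heterozygotes) and -0.22 (wild type and homozygotes). For heterozygotes and homozygotes the correlation was 0.24. These values cannot decide whether same-numbered libraries shared a preparation, which the labels do not give. With 2 libraries a genotype, differences of the size measured for *Psmb8* or *H2-D1* did not reach the threshold.

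Over all genes, the heterozygous calls higher numbered 354 without the filter against 139. The calls lower numbered 139 with DESeq2 and 188 without the filter against 73. Calls above the midpoint numbered 247 without the filter against 100, and below it 65 with DESeq2 and 92 without the filter against 25. The H2-Q sum in heterozygotes passed with DESeq2 (0.42, FDR 0.00721) and without the filter (0.43, FDR 0.006). The log2 fold change of *B2m* in heterozygotes was -0.0064 with DESeq2, -0.0064 with its size factors and -0.0037 with the replicate block. The cause was not tested.

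With 1 library left out, homozygous calls over all genes ranged from 132 to 455 higher and 89 to 296 lower (fewest without replicate 2 of wild type), heterozygous calls from 38 to 163 higher and 22 to 87 lower (fewest without replicate 1 and without replicate 2 of wild type, in that order), and calls from 53 to 97 above and 13 to 47 below the midpoint (fewest without replicate 2 of heterozygotes). Members called higher in heterozygotes ranged from 1 (without replicate 1 of wild type or of heterozygotes) to 3. The log2 fold changes in homozygotes ranged for *Canx* from -0.19 to 0.073, *Erap1* -0.016 to 0.12, *H2-K2* -0.016 to 0.46, *H2-T-ps* -0.049 to 0.14, *Pdia3* -0.035 to 0.15, *Psmb9* -0.013 to 0.25, *Tapbp* -0.11 to 0.14 and the H2-Q sum 0.52 to 0.65. In heterozygotes they ranged for *B2m* from -0.19 to 0.18, *Canx* -0.21 to 0.081, *Erap1* -0.044 to 0.095, *H2-D1* -0.013 to 0.17, *H2-K1* -0.020 to 0.14, *H2-K2* -0.22 to 0.078, *Nlrc5* -0.15 to 0.11, *Pdia3* -0.13 to 0.072, *Tapbp* -0.069 to 0.18 and the *H2-D1* and *H2-K1* sum -0.0097 to 0.13. The distance from the midpoint ranged for *Tapbpl* from -0.0099 to 0.16 and for the *H2-D1* and *H2-K1* sum from -0.092 to 0.023. None of these genes or sums, other than the H2-Q sum, passed the test in the comparison named.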

Other observations

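Within the stretch of chromosome 17 from *Tapbp* to *H2-M2*, genes outside the class I pathway also passed the test in homozygous T cells. Of the 103 such genes tested, 5 were called higher and 1 lower, against 3.14% and 2.12% of all tested genes. Besides *H2-DMa* (log2 fold change 1.34, FDR 0.000313), these were *Prrt1* (1.30, FDR 0.001), *Cchcr1* (0.93, FDR 0.0231), *Ddr1*, a collagen receptor (0.69, FDR 0.0104), and *Vars*, a valyl-tRNA synthetase (0.51, FDR 0.0134), which were higher, and *Tnf*, the cytokine (-1.46), which was lower. *Prrt1* and *H2-DMa* were called higher in heterozygotes as well. Of these, *Cchcr1* and *Ddr1* lie beyond *H2-Q10*, and the others lie before *H2-D1*. These genes were named after their values were seen.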
